A study of Mus musculus with 27 samples.

Results

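The cytoplasmic polyadenylated RNA of mouse embryonic stem cells was compared between 12 days after the loss of Dicer and the same line before that loss. Its members were the 3 libraries labelled cytoplasm at day 12 and the 3 labelled cytoplasm at day 0, together 6 of the 27 libraries of the series, and 15221 of the 38123 genes in the files could be tested in them. The cells were of the DTCM23/49 XY lines, which carry a conditional Dicer allele and were grown on gelatin with serum and leukemia inhibitory factor (LIF), a cytokine that maintains the undifferentiated state. The RNase III domain of Dicer was deleted with 800 nM 4-hydroxytamoxifen (4-OHT), and Dicer-deficient colonies were then selected, expanded and passaged up to day 12. All 6 libraries thus come from conditional-allele cells, day 0 before and day 12 after induction. The protocol names ethanol-treated controls, but no library after day 0 is labelled as one, so the drug, the selection of colonies and the days in culture cannot be told apart from the loss of Dicer. The labels say that the induction was done in triplicate and do not say from which culture each library came, so the p-values reflect only how much these libraries vary, and that variation may be technical.

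Dicer is the RNase III enzyme that cuts hairpin precursors into mature microRNAs. These short RNAs are loaded into Argonaute proteins in the cytoplasm, where they pair through bases 2 to 8, the seed, with sites in the 3' untranslated regions (UTRs) of messenger RNAs and lower their stability and translation. In mouse embryonic stem cells much of the microRNA pool comes from the miR-290 cluster, with a smaller part from miR-302, and several members of both share a seed. Published targets of that seed include inhibitors of the G1 to S transition such as Lats2, Cdkn1a and Rbl2.

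The RefSeq table (GRCm38.p6) held 5 mature microRNAs with this shared seed, and they are shown because the target results turn on it. The capitals mark the seed, bases 2 to 8:
miR-291a-3p (chr7:3218968-3218989): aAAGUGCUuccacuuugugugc
miR-294-3p (chr7:3220691-3220712): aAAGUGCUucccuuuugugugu
miR-295-3p (chr7:3220815-3220837): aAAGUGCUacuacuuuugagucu
miR-302b-3p (chr3:127545275-127545297): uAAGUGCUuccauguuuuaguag
miR-302d-3p (chr3:127545665-127545687): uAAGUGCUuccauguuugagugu
The first 3 lie together on chromosome 7 and the miR-302 members on chromosome 3. The longest 3' UTR of each gene (GENCODE M21, GRCm38) was searched on its sense strand for AGCACTTA, the complement of the seed followed by A, which is called the 8-mer below, and for AGCACTT, its first 7 bases. Of 23 published targets of the seed, 9 held the 8-mer and 18 the 7-mer, and 427 of the 12544 tested protein-coding genes with a 3' UTR (3.40%) held the 8-mer. The sites of 4 targets that were higher at day 12 and of the pair that was not are shown with their surroundings, the 8-mer in capitals:
Lats2 (chr14:57691086-57691093, minus strand): agtatggaaagAGCACTTAttttgtggata
Tgfbr2 (chr9:116087771-116087778, minus strand): tcaaaacctaaAGCACTTAttttcaatcta
Cdkn1a (chr17:29100500-29100507, plus strand): gtgggtgtcaaAGCACTTAgtgggtctgac
Irf2 (chr8:46846664-46846671, plus strand): ccttatcttgaAGCACTTAcaataggcctt
Lefty1 (chr1:180938213-180938220, plus strand): actgtatgcgaAGCACTTAcatgtatagat
Lefty2 (chr1:180897917-180897924, plus strand): cacccagtttaAGCACTTAcatgggtaaat
A match of letters is a description of the annotation and not a measured binding site.

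Levels are FPKM (fragments normalised to transcript length and to the mapped total), which are relative within a library. Their sums were 361267 to 374179 in the 6 libraries, and the steps between low values put their depth at 0.740 to 1.00 times that of the first day 0 library. Correlations of log2 levels across genes were 0.986 to 0.991 within a day and 0.928 to 0.931 between the days. The nuclear RNA Malat1 stood at 15.02 to 17.3 FPKM in the cytoplasm at day 0 and at 16.0 to 19.1 at day 12 (log2 change 0.08, adjusted p 0.43), against 213 to 415 and 80.4 to 254 FPKM in the nuclear fraction, so its cytoplasmic level did not move past the test. Of 5 tested RNAs in a list of nuclear RNAs that holds Malat1, Neat1 rose (log2 change 0.64), 1 fell and 3 did not pass. With the spread of all 12 nuclear and cytoplasmic libraries none fell. In bulk RNA, fewer cells of a type and less RNA per cell cannot be told apart.

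Dicer1 (chr12:104687742-104751952, GRCm38) was at 23.5, 21.2 and 22.9 FPKM in the 3 day 0 cytoplasmic libraries and at 3.00, 2.73 and 3.45 FPKM at day 12. All day 12 libraries lay below all day 0 libraries, and 13.6% of the day 0 mean remained in a value summed over the whole gene, exons outside the deleted domain included. The log2 change was -2.70 (SE 0.09). The comparison was chosen in part because Dicer1 was low at day 12, so this is a description with no test. The whole-cell libraries labelled day 12 held Dicer1 at 14.6 ± 1.8 FPKM (SD, n = 3) against 16.3 at day 0, so they went against their label and were not used here.

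In the cytoplasm 64.7% of tested genes changed, most of them by little. With limma on log2(FPKM + 0.5) and an adjusted p under 0.05, 4678 genes (30.7% of those tested) were higher and 5163 (33.9%) lower at day 12, the median change was -0.02 and the median size of change 0.41 on the log2 scale. A change of at least 2-fold on that scale was found in 1152 genes upward (7.57%) and 915 downward (6.01%). The libraries of the 2 days did not overlap for 10625 genes (69.8%). Counts of called genes in a list are therefore read against 30.7% higher and 33.9% lower. Where the spread was estimated from all 12 nuclear and cytoplasmic libraries, 2738 of 17124 genes tested were higher and 2836 lower. These shares are smaller, and list counts under that fit are read against them and not against 30.7% and 33.9%. List counts that fell by more than 1.5 times under that fit are given with it. Of the genes named here as changed, Atf4, Dnmt3b, Dppa5a, Drosha, Hmga2, Ifitm1, Kmt2a, Myc, Nanog, Otx2, Prkra, Sdf2l1 and Stat3 did not pass under it.

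The published miR-290 and miR-302 targets were higher as a list. Of 22 tested members, 19 rose and 2 fell, with a median log2 change of 1.10, and 11 rose by at least 2-fold. Lats2, a kinase of the Hippo pathway that also restrains entry into S phase, was at 0.643, 0.813 and 0.706 FPKM at day 0 and at 11.1, 9.86 and 10.1 at day 12. Its log2 change of 3.15 (SE 0.09, adjusted p 9.0e-07) was the largest in the list. Tgfbr2, the type II receptor for TGF-beta, stood at 0.518, 0.529 and 0.266 FPKM before and 7.21, 6.78 and 7.22 after induction (log2 change 3.03, SE 0.13, adjusted p 3.8e-06). Both genes were under 1 FPKM in each day 0 library and above 6 FPKM in each day 12 library. Irf2, an interferon regulatory factor, went from 0.453, 0.727 and 0.692 to 4.83, 4.28 and 4.42 FPKM (log2 change 2.16).

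Other targets were more abundant before induction. Cdkn1a, which encodes the cyclin-dependent kinase inhibitor p21, was at 44.0, 38.8 and 37.9 FPKM and then at 122, 122 and 120 (log2 change 1.58, SE 0.06, adjusted p 2.9e-06). Dazap2 rose from 49.8, 46.4 and 49.2 to 140, 144 and 140 FPKM (1.54 on the log2 scale). Ccnd1, the G1 cyclin D1, rose from 40.5, 43.0 and 41.9 to 116, 119 and 119 FPKM (1.49). The 3 genes had tight groups with no overlap. The histone methyltransferase gene Ash1l (1.61), the pocket protein gene Rbl2 (1.3), the methyl-CpG-binding protein gene Mbd2 (1.45), the caspase gene Casp2 (1.29) and the nuclear receptor gene Nr2f2 (1.38, from a mean of 0.125 to 1.13 FPKM) also rose by at least 2-fold. Ei24 (0.90), Tob2 (0.82), Bmpr2 (0.80), Rhoc (0.68), Rela (0.67), Akt1 (0.66) and Arid4b (0.45) rose by less.

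Lefty1, Lefty2 and Slain1 did not follow the list. The Nodal antagonist Lefty1 was at 58.7, 58.8 and 59.3 FPKM at day 0 and 60.2, 59.9 and 62.7 at day 12, a log2 change of 0.05 that did not pass (adjusted p 0.34). Lefty2, its neighbour on chromosome 1, fell from 50.7, 52.0 and 58.1 to 24.1, 26.2 and 20.7 FPKM (-1.17, adjusted p 4.9e-05), and the UTRs of both hold the 8-mer shown above. Slain1, a microtubule-associated protein gene with neither form of the site, fell from 6.15, 5.83 and 6.69 to 2.58, 2.12 and 2.17 FPKM (-1.27). Dkk1 was below the level needed for a test. The members were taken from published work on this seed, and 5 of the 23 (Dkk1, Rela, Bmpr2, Nr2f2 and Slain1) held no 7-mer of it.

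**Figure D1:**
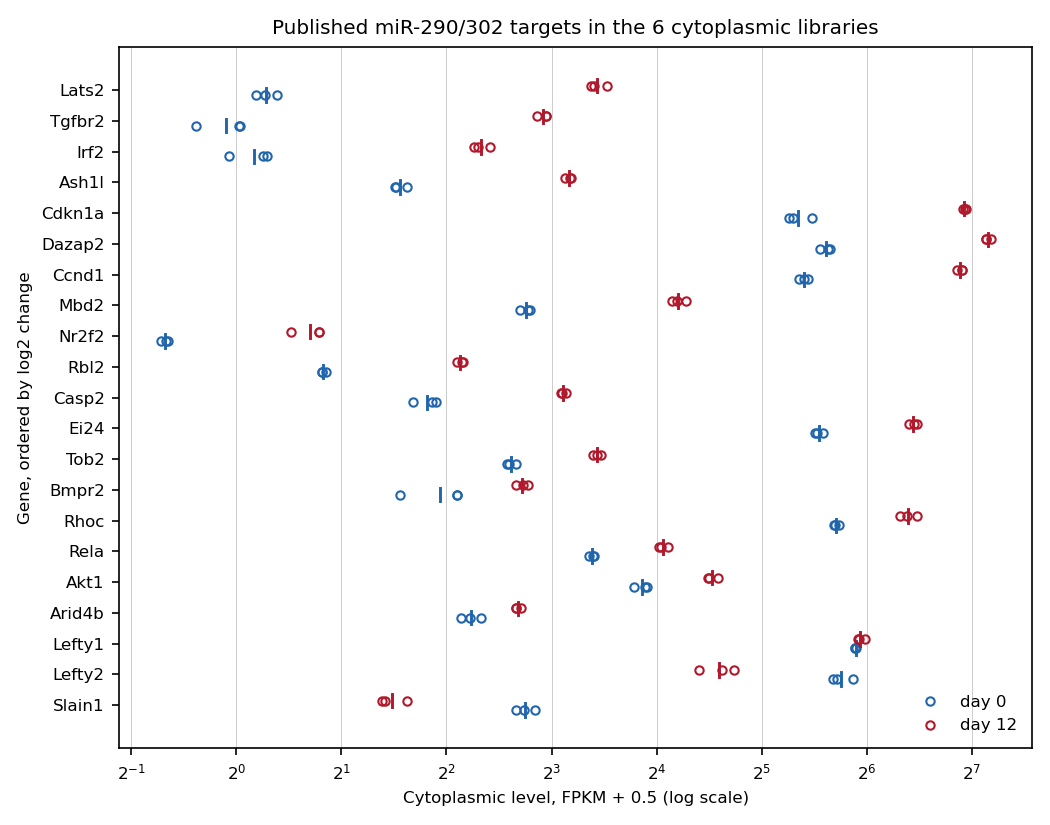
Cytoplasmic level of 21 of the tested published targets of the seed shared by miR-290 and miR-302 members, as FPKM + 0.5 on a log axis, with 1 point for each of the 3 day 0 and 3 day 12 libraries. The day 12 points lie to the right of the day 0 points for 18 genes that rose, and to the left for Lefty2 and Slain1.

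Genes with the site were also higher when chosen by sequence alone. Among the 12544 tested protein-coding genes with a 3' UTR, 32.8% rose and 36.7% fell, with a median log2 change of -0.04. The 427 genes with at least 1 8-mer for AAGUGCU had a median of 0.31, and 237 of them (55.5%) rose and 78 (18.3%) fell. The median went from -0.05 over 12117 genes without a site to 0.30 over 409 genes with 1 and 0.44 over 18 genes with 2 or more. The 2132 genes with the 7-mer had a median of 0.16.

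Genes with a site had longer UTRs, with a median of 2744 bases for 1 site against 1076 for none, and longer UTRs went with more positive changes (Spearman 0.18 across genes, which are not independent replicates). Within bands of UTR length the medians with and without a site were 0.66 and -0.19 below 500 bases (20 genes with a site), 0.29 and -0.07 from 500 to 1000, 0.35 and -0.02 from 1000 to 2000, 0.27 and 0.08 from 2000 to 4000, and 0.30 and 0.09 above 4000. The difference was smallest in the 2 longest bands and had the same sign in all 5.

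The 552 genes with an 8-mer for the miR-17 family, whose seed is a shifted form of AAGUGCU, had a median of 0.31, the same to 2 decimals as for AAGUGCU itself, and 56.0% of them rose. For the other families medians were 0.18 for miR-92, 0.15 for miR-21, 0.14 for miR-19, 0.12 for miR-183, 0.11 for miR-16, 0.10 for miR-182 and 0.09 for miR-26. Genes with a site for miR-17 or these families had median UTR lengths of 2430 to 3025 bases, against 1115.5 over all. Genes with UTRs of 2000 to 4000 bases and no 8-mer for AAGUGCU had a median change of 0.08. No bands of UTR length were made for these families, so the part of length in their medians was not tested. The 466 genes with a let-7 site had a median of 0.01, with 35.8% higher and 34.3% lower. Mature let-7 is low in undifferentiated embryonic stem cells, where Lin28a blocks its maturation.

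**Figure D2:**
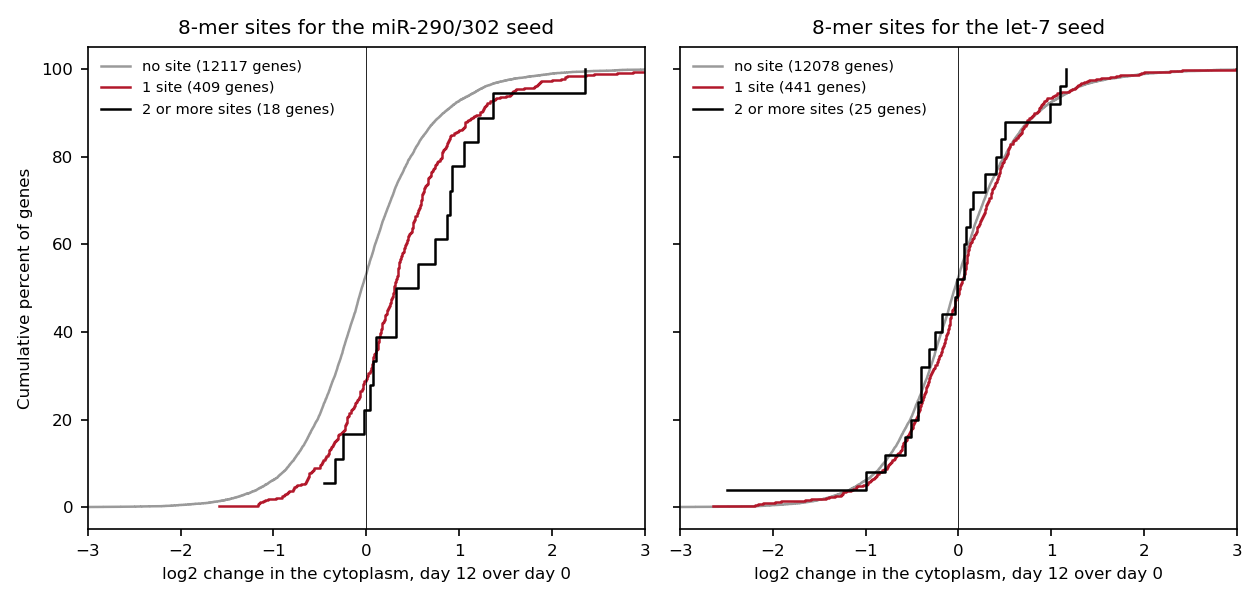
Cumulative share of tested protein-coding genes by log2 change in the cytoplasm from day 0 to day 12, split by the number of 8-mer sites in the longest 3' UTR for the seed of miR-290 and miR-302 members and for let-7. The curves for genes with sites of that seed lie to the right of the curve without (medians 0.30 and 0.44 against -0.05), and the 466 genes with a let-7 site together have a median of 0.01.

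Named let-7 targets moved both ways, 8 of 19 rising and 9 falling (median -0.04; 2 rose and 6 fell with the spread of 12 libraries). Lin28a, the RNA-binding protein that blocks let-7 processing, fell from 79.7, 93.5 and 88.5 to 15.5, 14.5 and 15.1 FPKM (log2 change -2.49, SE 0.07, adjusted p 8.4e-07). Hmga2, an architectural chromatin protein and the best known let-7 target, rose from 2.57, 3.02 and 2.86 to 8.38, 8.76 and 7.81 FPKM (1.41). Its relative Hmga1 fell by 0.91 on the log2 scale, from 193 to 223 FPKM down to 107 to 112.

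Of 14 tested genes of the microRNA machinery, 7 rose and 2 fell (1 fell with the spread of 12 libraries). Tnrc6a, a GW182 protein that links Argonaute to deadenylation, rose from 10.8, 11.4 and 11.4 to 40.3, 40.1 and 39.7 FPKM (log2 change 1.80, SE 0.04, adjusted p 6.3e-07). Ago1, an Argonaute protein, rose from 9.96, 9.36 and 10.0 to 30.6, 31.7 and 30.1 FPKM (1.61). Tnrc6b rose by 1.03 and Dgcr8, the partner of Drosha in the nucleus, by 0.49. Prkra, a Dicer partner, fell by 0.41. The call of Drosha itself (0.17, adjusted p 0.033) was lost under several alternatives.

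Among the genes named by size of change the largest rises were those of Pla2g7, Msln, Notum and Emp1. Pla2g7, a secreted phospholipase that degrades platelet-activating factor, was at 0.339, 0.248 and 0.191 FPKM at day 0 and 11.2, 11.6 and 10.4 at day 12 (log2 change 3.93, SE 0.10, adjusted p 6.7e-07). Msln, the surface protein mesothelin, rose from 0.533, 0.470 and 0.531 to 14.0, 12.3 and 14.7 FPKM (3.80). Notum, a secreted enzyme that inactivates Wnt proteins, rose from 1.64, 1.46 and 1.28 to 25.5, 25.01 and 24.8 FPKM (3.71). None of the 3 reached 2 FPKM in any day 0 library. Emp1, an epithelial membrane protein, rose from 2.93, 2.97 and 3.34 to 45.5, 46.5 and 45.5 FPKM (3.70). Csf1, the macrophage growth factor, rose from 1.11, 1.49 and 1.11 to 18.7, 18.0 and 18.7 FPKM (3.45). Ccnd2, the G1 cyclin D2, rose from 3.00, 3.30 and 2.36 to 35.7, 37.1 and 36.7 FPKM (3.46). Gsto1, a glutathione transferase, was the most abundant of the 12 largest rises, at 42.3, 45.3 and 42.9 before and 429, 430 and 384 FPKM after. Others of the 12 were Notumos (3.54), Serpinb9b (3.53), Aard (3.47) and Zfp488 (3.24).

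Notumos and Myadml2os overlap Notum and its neighbour, and whether counting used the strand is not given in the sources used here, so these genes cannot be told apart from their partners. The same holds for 1700071M16Rik, which lies within Pla2g7.

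The largest falls included a germ line and naive-state gene, a retinoid-binding protein and a mitochondrial protein. Ndufa4l2, a mitochondrial protein induced in hypoxia, was at 7.67, 6.86 and 8.20 FPKM at day 0 and was listed at 0 in 1 day 12 library and at 0.118 and 0.0526 in the others (log2 change -3.86, SE 0.12). Crabp1, a cellular retinoic acid-binding protein, fell from 32.8, 28.6 and 31.4 to 2.18, 2.02 and 1.92 FPKM (-3.63). Dppa3, also called Stella, which protects maternal methylation marks after fertilisation, fell from 142, 141 and 145 to 13.2, 10.0 and 13.2 FPKM (-3.51, SE 0.10, adjusted p 1.2e-06). For each of these genes every day 12 library lay far below every day 0 library. Rgcc fell by 3.10, Usp26 by 3.07, Pigyl by 2.91, Prelid2 by 2.86, Ly6g6e by 2.83, Acot1 by 2.69 and Ndrg2 by 2.65 on the log2 scale, and Dicer1 itself ranked among the 12. Mt4, a metallothionein, had the widest spread, with 13.4, 14.3 and 16.4 FPKM before and 3.36, 0.518 and 1.62 after (-2.90, SE 0.43, adjusted p 0.00084).

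**Figure D3:**
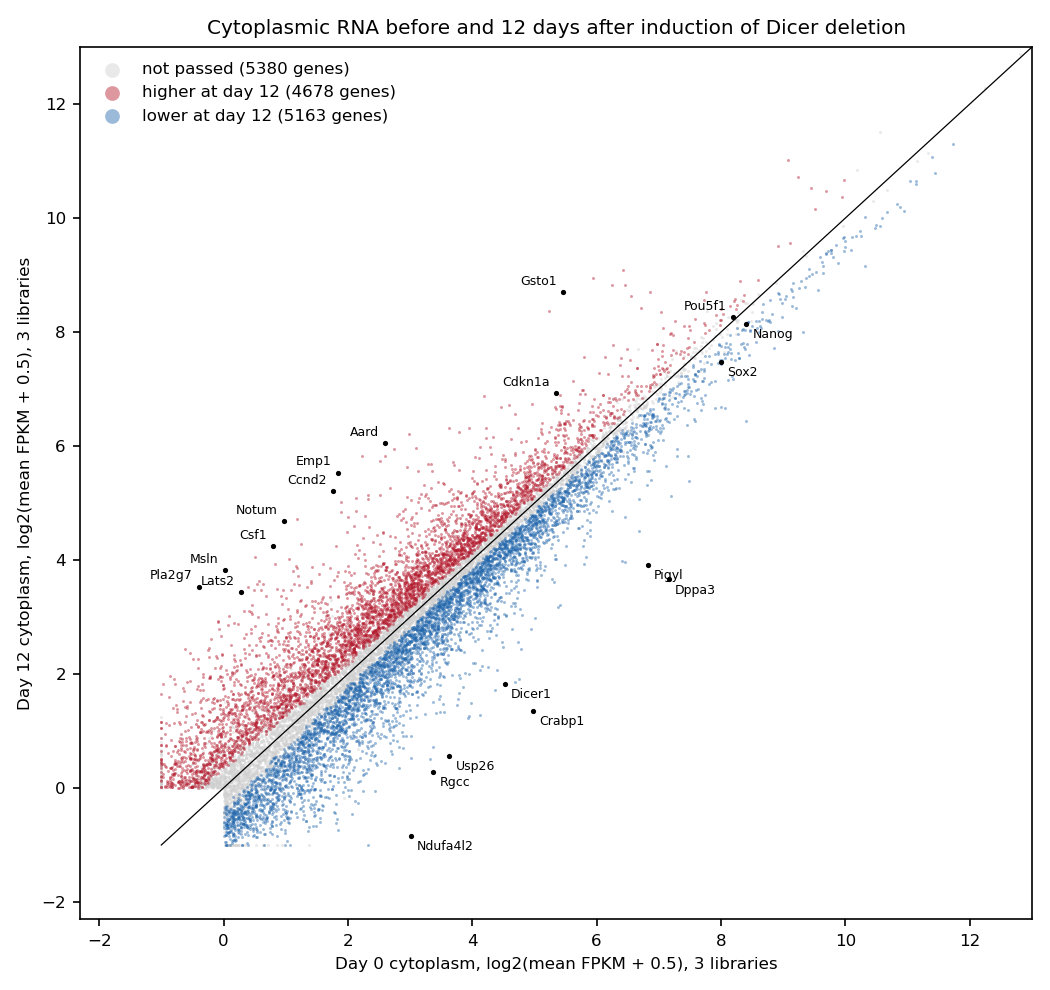
Mean level of each of 15221 tested genes in the cytoplasm at day 0 (x axis) and day 12 (y axis), both as log2(mean FPKM + 0.5), coloured by whether the gene passed the test upward, downward or not. Most genes lie close to the diagonal. Of the labelled genes, Pla2g7 and Msln lie far above it and Ndufa4l2 and Crabp1 far below it, while Pou5f1, Nanog and Sox2 lie close to it.

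Inhibitors of the cell cycle were higher more often than lower. Of 14 tested members 8 rose and 4 fell, with a median of 0.52 and 6 rises of at least 2-fold (with the spread of 12 libraries, 1 fell). Cdkn2a, the locus of p16 and p19Arf, rose from 3.92, 4.17 and 3.26 to 24.3, 25.5 and 21.4 FPKM (log2 change 2.50, SE 0.10, adjusted p 3.1e-06). Its neighbour Cdkn2b, which encodes p15, rose from 1.73, 1.56 and 2.04 to 9.05, 8.37 and 7.29 FPKM (1.94), and Lats1, the relative of Lats2, rose by 1.10. Among 13 cyclins, kinases and factors of the G1 to S step, 8 rose and 4 fell (median 0.44; 5 and 2 with the spread of 12 libraries). Ccne2, a cyclin that drives entry into S phase, rose by 1.21 and Myc by 1.03, whereas Cdk2 fell by 0.50.

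The p53 pathway had 17 of 24 members higher and 3 lower (median 0.56; 1 lower with the spread of 12 libraries). Perp, a membrane protein that p53 induces, rose from 30.1, 31.5 and 30.7 to 105, 108 and 108 FPKM (log2 change 1.78, SE 0.04, adjusted p 5.6e-07). Plk3 (1.31), Plk2 (1.18) and Btg2 (1.04) also rose by at least 2-fold. Trp53 itself was at 154, 147 and 144 FPKM before and 213, 208 and 195 after (0.46, adjusted p 0.00023), and Mdm2, the ligase that degrades p53, rose by 0.62. The groups of both genes did not overlap, but their changes were near the median size of change of all genes, 0.41.

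Caspases and Bcl2-family genes moved both ways, with 9 of 22 higher and 8 lower (median 0.11). Bnip3, a mitochondrial mitophagy receptor, fell from 37.9, 42.0 and 46.2 to 9.82, 9.17 and 7.29 FPKM (-2.20) and Bmf, a BH3-only death inducer, fell by 2.11. Casp8 (1.07), the BH3-only gene Bcl2l11 (1.06) and the survival gene Bcl2l1 (1.02) rose.

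The core pluripotency factors stayed abundant, while several naive-state genes were lower. Pou5f1, which encodes Oct4, was at 288, 294 and 294 FPKM before and 321, 310 and 290 after, and its log2 change of 0.07 did not pass (adjusted p 0.27). Nanog went from 353, 326 and 336 to 278, 274 and 291 FPKM (-0.27, adjusted p 0.0032). Sox2 went from 241, 252 and 271 to 176, 188 and 170 FPKM (-0.52, adjusted p 0.00032). Pou5f1 overlapped between the days and the other pair did not. Of 24 core and naive genes 5 rose and 14 fell, with a median of -0.27 (2 and 8 with the spread of 12 libraries). Beside Dppa3, the falls of at least 2-fold were Tcl1 (-1.51), Nr5a2 (-1.23) and Dppa5a (-1.17), whose reads may be shared with near-identical copies. Klf2, a naive-state factor, rose instead from 139, 130 and 129 to 273, 271 and 263 FPKM (1.01), and Dppa2 rose by 0.92.

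Markers of the primed state did not take their place, with 1 of 10 tested members higher and 6 lower (median -0.24; 3 lower with the spread of 12 libraries). Sox3 fell by 0.99, Cldn6 by 0.95 and Otx2 by 0.26, and Fgf5 was below the level needed for a test. In the LIF pathway the kinase genes Pim2 (-1.34), Pim3 (-1.13) and Pim1 (-1.06), which LIF signalling induces, fell, while the receptor genes Il6st (1.00) and Lifr (0.61), the kinase gene Jak1 (0.68) and Stat3 (0.33) rose. The list thus had 4 of 11 members higher and 5 lower, and the members that rose were receptors and transducers.

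Genes of DNA methylation were lower in 5 of 9 cases and higher in 1 (3 lower with the spread of 12 libraries). Dnmt3l, the cofactor of the de novo enzymes, fell from 66.6, 63.1 and 58.8 to 28.4, 28.6 and 27.9 FPKM (log2 change -1.13, SE 0.05, adjusted p 5.8e-06), and Uhrf1, which guides maintenance methylation, fell by 0.59. The de novo enzyme Dnmt3b fell from 44.7, 53.3 and 48.9 to 38.8, 35.4 and 37.3 FPKM (-0.39, adjusted p 0.0025). Its relative Dnmt3a, at 7.37, 7.85 and 7.51 before and 7.26, 7.13 and 7.41 after, did not pass (-0.06, adjusted p 0.38). Germline genes known to be silenced by methylation had 7 of 11 members higher and 2 lower (2 and 1 with the spread of 12 libraries), with Ddx4, a germ-cell helicase, at 9.20, 11.3 and 10.9 FPKM before and 25.7, 27.1 and 25.2 after (1.28). Sycp3, of the synaptonemal complex, fell by 1.57.

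Of 27 tested genes of Nodal and TGF-beta signalling 18 rose and 7 fell, with a median of 0.54 (12 and 5 with the spread of 12 libraries). Id1, an inhibitor of basic helix-loop-helix factors that BMP signalling induces, went from 4.79, 7.09 and 6.77 to 58.6, 66.4 and 59.6 FPKM (log2 change 3.22, SE 0.14, adjusted p 3.8e-06). Its relatives Id2 (2.35) and Id3 (2.13) rose as well, so the changes of all 3 Id genes named here were above 2 on the log2 scale. The ligand gene Tgfb2 rose by 1.28 and Nodal by 0.86, while Tdgf1, a Nodal co-receptor, fell by 0.62.

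The Hippo list, which holds the pathway and targets of its effector Yap, had 13 of 15 members higher and 1 lower (median 0.63). Ccn1, a matricellular Yap target, rose from 22.6, 29.4 and 23.5 to 93.1, 92.9 and 95.0 FPKM (1.88), Ccn2 rose by 1.82 and the receptor kinase gene Axl by 1.68. Lats2, which inhibits Yap, belongs to this list as well as to the microRNA targets, so the lists are not independent.

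Wnt genes moved both ways, 10 of 16 rising and 5 falling (median 0.26; 4 rose with the spread of 12 libraries). Beside Notum, the transcription factor gene Tcf7l2 rose by 1.64, while its relative Tcf7 fell from 77.7, 73.2 and 75.0 to 27.6, 29.5 and 28.5 FPKM (-1.38) and Axin2, a common readout of the pathway, fell from 4.06, 3.10 and 3.47 to 1.13, 0.888 and 1.21 FPKM (-1.36). In the retinoic acid list 5 of 10 rose and 4 fell (3 and 2 with the spread of 12 libraries). Dhrs3, a retinal reductase, went from 1.13, 0.802 and 0.971 to 2.30, 3.05 and 2.69 FPKM (1.12), and Crabp2, the relative of Crabp1, fell by 0.78.

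Cytoskeletal and contractile genes rose as a list, 24 of 27 tested (median 0.94), and 2 fell (none with the spread of 12 libraries). Vim, the intermediate filament vimentin, went from 87.0, 90.6 and 84.2 to 470, 453 and 434 FPKM (log2 change 2.37, SE 0.05, adjusted p 5.6e-07). Anxa1, a membrane-binding annexin, went from 4.46, 3.81 and 5.30 to 32.8, 34.3 and 31.8 FPKM (2.75). Cald1, which binds actin and tropomyosin, rose from 17.7, 17.9 and 18.9 to 72.4, 68.8 and 69.1 FPKM (1.92). All day 12 libraries lay above all day 0 libraries for each of these genes. Actg2, a smooth muscle actin, was listed at 0 in 2 day 0 libraries and at 0.144 FPKM in the third, and stood at 4.20, 2.92 and 3.13 FPKM at day 12. Acta2 (0.88) and Tagln (0.91), the usual smooth muscle markers, rose by less.

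Basement membrane and integrin genes rose in 16 of 19 cases and fell in 2 (median 1.17; 1 with the spread of 12 libraries). Itga5, the fibronectin receptor subunit, went from 9.74, 8.42 and 8.96 to 36.8, 34.9 and 33.5 FPKM (1.90). The type IV collagen genes Col4a1 (1.86) and Col4a2 (1.90), which share a promoter region, rose to like degrees, and the matricellular gene Sparc went from 104, 104 and 105 to 346, 344 and 340 FPKM (1.72). Among 21 tested secreted and surface genes, a list drawn up with results of this series known, so that its direction is no independent evidence, 17 rose and 3 fell (median 1.37; 1 fell with the spread of 12 libraries). Thbs1, thrombospondin 1, went from 3.28, 3.75 and 3.42 to 28.2, 26.2 and 25.2 FPKM (2.76), Epha2, an ephrin receptor, rose by 2.10, and the chemokine gene Ccl2 was listed at 0 in all 3 day 0 libraries and at 1.54, 1.16 and 1.99 FPKM at day 12.

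Some markers of differentiated cell types rose with these genes, and others stayed near 0. Hand1, a factor of trophoblast and mesoderm, was at 0.865, 0.905 and 0.936 FPKM before and 10.6, 10.4 and 10.9 after (log2 change 2.99). Gata3, of trophoblast, went from 0.294, 0.229 and 0.241 to 3.21, 2.31 and 3.32 FPKM (2.18). Sox1, of neuroectoderm, went from 0.808, 1.08 and 1.18 to 6.11, 5.60 and 5.55 FPKM (2.04), and the neuroectoderm list had 3 of 6 tested members higher and 1 lower (none lower with the spread of 12 libraries). Trophoblast markers had 7 of 10 tested members higher and 1 lower, and their summed level was 227 to 239 FPKM at day 0 and 403 to 444 at day 12, much of it from the keratin genes Krt8 and Krt18. Cdx2, which defines trophoblast, was below 1 FPKM in all 6 libraries, at 0.0664, 0.200 and 0.0661 before and 0.697, 0.852 and 0.882 after (1.11), and Eomes did not pass. Mesoderm markers had 5 of 9 higher and 1 lower, with sums of 6.90 to 10.3 and 26.4 to 27.7 FPKM. The mesenchymal factor genes Snai1 (1.98), Twist1 (1.19) and Snai2 (1.17) were among those that rose, while T and Mixl1 did not pass.

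Endoderm markers had 3 of 5 tested members higher and 1 lower, with sums of 120 to 123 and 362 to 369 FPKM, most of it Sparc, and Gata4, an endoderm factor, went from 0.481, 0.347 and 0.479 to 1.73, 1.66 and 2.04 FPKM (1.3). Fibroblast markers had 4 of 6 higher and 1 lower, with sums of 142 to 154 and 535 to 567 FPKM, mostly Vim, whereas Thy1 fell from 8.79, 8.33 and 6.94 to 1.77, 2.04 and 1.83 FPKM (-1.83). The receptor gene Pdgfrb rose from 0.343, 0.181 and 0.164 to 1.01, 0.851 and 1.14 FPKM (1.04). The mean levels at day 12 were 0.0562 FPKM for Sox17, 0.131 for Foxa2 and 0.426 for Gata6 among defining endoderm genes, 0.0777 for Elf5 in trophoblast, and 0.143 for Col3a1, 0.435 for Dcn and 0.0600 for Lum in fibroblasts. The part of other cell types in the rises of this section was not tested beyond these levels.

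**Figure D4:**
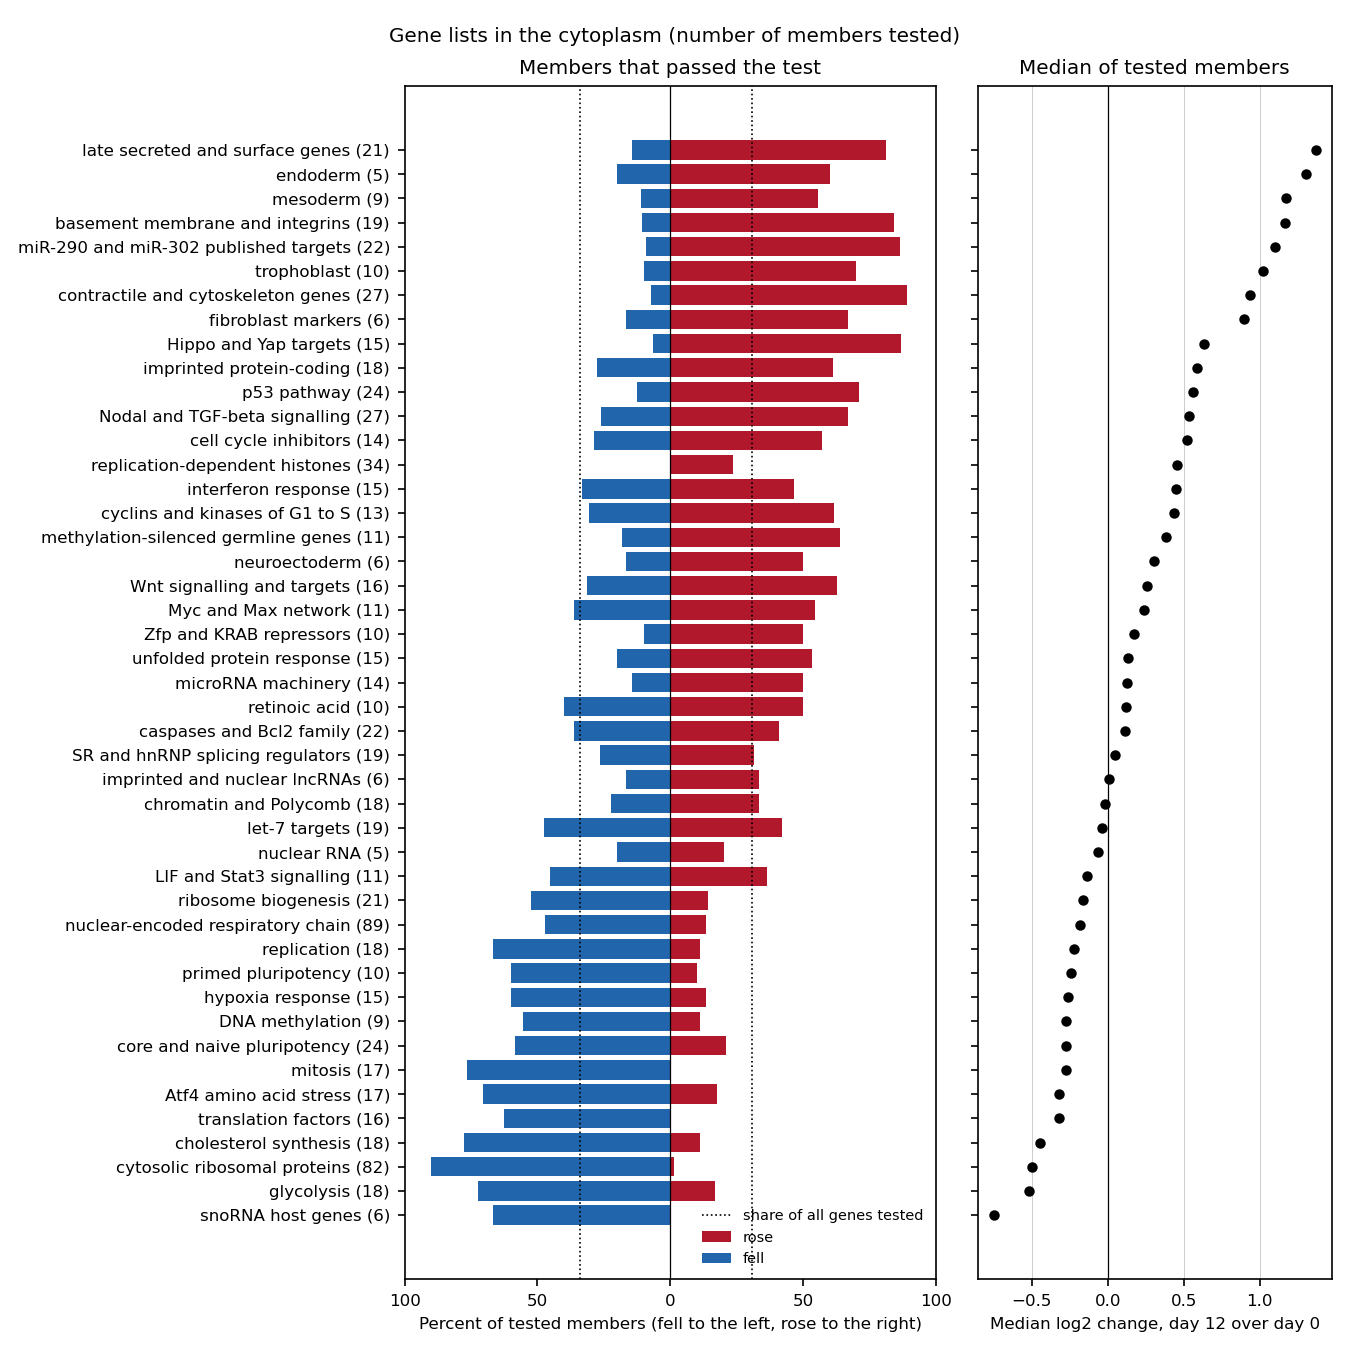
For each gene list with at least 5 tested members, the percent of members that rose and that fell in the cytoplasm, with dotted lines at the shares over all 15221 genes (30.7% and 33.9%), and beside it the median log2 change. The secreted, endoderm, mesoderm, basement membrane, microRNA target, trophoblast and contractile lists sit at the top by median. At the bottom are the lists of small nucleolar RNA host genes, glycolysis, ribosomal proteins and cholesterol synthesis.

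Genes of glucose use and of the hypoxia response were lower. Of 18 glycolytic genes 13 fell and 3 rose (median -0.52; 1 rose with the spread of 12 libraries). Aldoc, an aldolase, fell from 19.5, 17.6 and 18.8 to 3.84, 4.01 and 3.67 FPKM (log2 change -2.14, SE 0.06, adjusted p 1.1e-06). Its abundant relative Aldoa fell from 659, 624 and 622 to 243, 246 and 282 FPKM (-1.31). The phosphofructokinase genes Pfkp (-1.60) and Pfkl (-1.24), Pgk1 (-1.09) and the glucose transporter gene Slc2a3 (-0.97) fell with them, so the falls covered uptake and several steps of the pathway. Gapdh, whose reads may be split among its many pseudogene copies, did not pass (0.06, adjusted p 0.59). Of 15 hypoxia response genes 9 fell and 2 rose (1 rose with the spread of 12 libraries), the falls including Ddit4 (-1.17) and Vegfa (-0.92). Hif1a, the regulated factor itself, did not pass (-0.01, adjusted p 0.91).

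Amino acid and sterol synthesis genes were lower as well. The Atf4 list, which holds genes of amino acid synthesis and stress, had 12 of 17 members lower and 3 higher (median -0.32). Asns, asparagine synthetase, fell from 268, 267 and 262 to 96.1, 98.7 and 107 FPKM (-1.40), and the serine synthesis genes Psat1 (-1.06) and Phgdh (-1.05) fell with it. Atf4 itself fell by 0.25. Of 18 cholesterol synthesis genes 14 fell and 2 rose (median -0.45; 9 fell and none rose with the spread of 12 libraries), with Dhcr7 at 31.3, 28.5 and 27.8 FPKM before and 12.8, 11.2 and 12.3 after (-1.24). Lss (-1.18), Insig1 (-1.10) and Fdps (-1.05) also fell by at least 2-fold. Genes of the unfolded protein response were more often higher, with 8 of 15 higher and 3 lower (median 0.14; 4 and none with the spread of 12 libraries). Dnajb9, an endoplasmic reticulum chaperone, rose by 1.11 and Hspa5 by 0.35, whereas Sdf2l1 fell by 0.92.

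The interferon list was split, with 7 of 15 tested genes higher and 5 lower (2 lower with the spread of 12 libraries). The interferon regulatory factor genes Irf2, Irf9 (1.08) and Irf1 (1.03) rose. The surface protein gene Bst2 fell from 87.6, 89.6 and 84.3 to 25.7, 28.8 and 25.2 FPKM (-1.70), Ifitm1 went from 237, 242 and 235 to 105, 95.0 and 103 (-1.23), and the transducer gene Stat2 fell by 1.41. In the Myc and Max network, Mycl fell by 1.46 and the antagonists Mxd4 (1.39) and Mxd1 (0.90) rose, with 6 of 11 members higher and 4 lower (3 and 1 with the spread of 12 libraries).

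The cytosolic ribosomal protein genes fell almost as a block, by modest amounts. Of 82 tested members 74 fell and 1 rose, with a median of -0.49, and their summed level went from between 56651 and 60083 FPKM to between 39981 and 42238. With the spread of 12 libraries 7 passed downward and none upward, and under the other alternatives 55 to 75 did downward. Rpl9 fell most among those named, from 167, 202 and 200 to 96.2, 95.0 and 73.6 FPKM (-1.10). Ribosomal protein genes have many near-identical pseudogenes, and how reads with several matches were counted is not given in the sources used here. Translation factors had 10 of 16 members lower and none higher (5 lower with the spread of 12 libraries). The helicase gene Eif4a2 fell from 88.4, 95.6 and 97.0 to 40.7, 41.3 and 39.7 FPKM (-1.20), whereas Eef1a1 did not pass (0.04, adjusted p 0.72). Of 21 ribosome biogenesis genes 11 fell and 3 rose (5 and 1 with the spread of 12 libraries).

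Nuclear-encoded genes of the respiratory chain fell in 42 of 89 cases and rose in 12 (median -0.18), and with the spread of 12 libraries 5 fell and none rose.

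Replication and mitosis genes were lower by small amounts. Of 18 replication genes 12 fell and 2 rose (median -0.22; 7 fell and none rose with the spread of 12 libraries), and Orc1, of the origin recognition complex, fell most, from 11.2, 10.8 and 11.4 to 6.44, 5.99 and 5.68 FPKM (-0.83). Of 17 mitosis genes 13 fell and none rose (median -0.28; 7 with the spread of 12 libraries), among them Bub1 (-0.59), Plk1 (-0.57) and the cyclin gene Ccnb1 (-0.56). Splicing regulators were split, 6 of 19 higher and 5 lower (2 lower with the spread of 12 libraries), with the kinase gene Clk2 falling by 0.91. Chromatin and Polycomb genes were split too, 6 of 18 higher and 4 lower (none and 2 with the spread of 12 libraries). Chd4, the remodeller of the NuRD complex, fell in the cytoplasm from 94.7, 80.3 and 85.8 to 42.3, 40.5 and 44.2 FPKM (-1.03) and rose in the nucleus by 1.02, a difference that missed the threshold (adjusted p 0.054).

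Imprinted protein-coding genes had 11 of 18 members higher and 5 lower (median 0.59; 5 and 3 with the spread of 12 libraries). Plagl1, a zinc finger regulator of growth, rose from 3.82, 3.61 and 4.19 to 29.4, 27.8 and 28.0 FPKM (log2 change 2.73, SE 0.06, adjusted p 5.8e-07). The growth factor gene Igf2 rose by 1.3, and the imprinted noncoding RNA H19, which lies beside it, went from 62.7, 49.0 and 54.5 to 174, 180 and 210 FPKM (1.76). Phlda2, a placental growth inhibitor, fell from 111, 98.8 and 96.4 to 24.3, 17.8 and 24.8 FPKM (-2.18), and Grb10, an inhibitor of insulin signalling, by 1.31.

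Long noncoding RNAs changed less often than protein-coding genes in each direction. Of 1081 tested lncRNA genes 24.9% were higher and 29.6% lower, against 32.8% and 36.6% of 12646 protein-coding genes; the difference was not tested, and the median day 0 level was 1.80 FPKM for lncRNA and 6.84 for protein-coding genes. Intergenic lncRNAs had 23.3% higher and 34.2% lower (301 genes, median -0.14), and antisense lncRNAs 27.9% and 24.9% (555 genes, median 0.02). Gm26905 was the most abundant of the large rises, at 84.5, 79.6 and 92.1 FPKM before and 563, 547 and 519 after (2.66), and Gm7976 went from 5.62, 7.56 and 11.02 to 79.9, 59.6 and 47.1 FPKM (2.89). Myadml2os (3.11) and 1700071M16Rik (2.60) rose beside the coding genes named above.

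Pluripotency-associated transcripts (Platr genes), lncRNAs catalogued for their expression in undifferentiated cells, were 3 of the 5 largest lncRNA falls. Platr14 went from 39.2, 43.5 and 41.0 to 8.93, 8.67 and 8.15 FPKM (-2.20), Platr4 from 10.8, 15.6 and 13.04 to 1.69, 3.19 and 2.48 (-2.23) and Platr27 from 10.0, 12.9 and 9.15 to 2.51, 2.42 and 1.15 (-2.19). The remaining falls were Gm13061 (-2.83) and Gm11527 (-2.18). Of 12 listed host genes of small nucleolar RNAs, 6 could be tested. Of these 4 fell and none rose, Zfas1 by 1.59, Snhg5 by 0.97, Snhg12 by 0.82 and Gas5 by 0.68. Snhg15, which was not among the 6, rose by 0.66 (limma, adjusted p 0.00028).

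The nuclear fraction of the same days was compared to see where the cytoplasm differed. In the nucleus 36.7% of genes changed, and 2585 genes (15.1%) were higher and 3696 (21.6%) lower at day 12. The spread for these calls came from all 12 nuclear and cytoplasmic libraries. With that spread 2738 genes were higher and 2836 lower in the cytoplasm, so the nuclear shares cannot be set against 64.7%. The overlap below uses cytoplasmic calls with the spread of the cytoplasmic libraries alone. Its cytoplasmic and nuclear shares thus rest on unlike spreads. Among genes tested in both, 1979 were called higher in both, 42.3% of the cytoplasmic and 82.3% of the nuclear rises. Lower in both were 2572, 49.8% and 78.2% of the falls, while 90 and 60 were called in opposite directions. A test of the difference between the changes in 1 fit of 12 libraries called 1.33% of genes, 180 with a more positive change in the cytoplasm (1.05%) and 47 with a more negative one (0.274%). Nuclear replicates were far more variable, and without 1 library of each day of the nucleus, the pair that stood apart, 3676 (21.6%) and 2904 (17.1%) were called.

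Emp1 had one of the largest differences, with a cytoplasmic log2 change 2.26 above the nuclear one (adjusted p 2.1e-05). Pmp22, a myelin protein gene, went from a mean of 7.90 to 24.6 FPKM in the cytoplasm while its nuclear mean went from 44.4 to 25.8, a difference of 2.27. Among the microRNA targets the median change was 1.10 in the cytoplasm and 0.65 in the nucleus, with 13 rising and 1 falling there. Of the 22 targets 3 had a more positive change in the cytoplasm by the test of the difference, and 14 had with 10 libraries, when 3 had a more negative one. Of the 27 contractile genes 8 had a more positive change in the cytoplasm, and 23 had with 10 libraries. Other lists went the other way with 10 libraries. Of 82 ribosomal protein genes 64 had a more negative change and none a more positive one. Of 91 respiratory chain genes 68 had a more negative change and 2 a more positive one. With 12 libraries no gene of either list was called.

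Whole cells at day 10, set against whole cells at day 0, changed in 61.8% of tested genes, 37.6% higher and 24.2% lower. The spread for these calls came from 12 libraries, the 6 of whole cells and the 6 of the cytoplasm. They had 3847 genes higher in common with the cytoplasm (82.2% of the cytoplasmic and 66.6% of the whole-cell rises) and 3094 lower (59.9% and 83.1%). The targets had the same median there, 1.10, with 20 higher and 2 lower, and genes with an 8-mer of the seed had a median of 0.33 there against 0.08 over all protein-coding genes with a UTR. The same pair of medians was 0.31 and -0.04 in the cytoplasm and 0.17 and -0.09 in the nucleus, so the genes with a site stood above all genes in each, and the differences between the 3 were not tested. The days differ, and the change differed between cytoplasm and whole cells for 25% of genes, 982 upward (6.20%) and 2970 downward (18.8%). Among the largest of these differences was that of Gapdh (3.63), which stood at 798 ± 81 FPKM (SD, n = 3) in whole cells at day 0 and at 66.7 at day 10. Gapdh changed by -3.57 in whole cells, 0.06 in the cytoplasm and 0.04 in the nucleus. Whole-cell libraries of day 0 may count genes with near-identical copies differently. Their depth was 1.71 to 2.01 times that of the first day 0 cytoplasmic library, against 0.410 to 0.535 at day 10. The part of either in these differences was not tested.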

How the data were processed

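Polyadenylated RNA of cytoplasmic, nuclear and whole-cell extracts was sequenced in 27 libraries, with reads of 100 bases per the labels' protocols. The authors deposited FPKM values per gene and library, per the file headers. TopHat2 2.0.9, Cufflinks 1.3.0 and build mm9 appear in the submitters' processing notes, with no role given. Which annotation and strand setting were used, and how multiply matching reads were treated, is not given in the sources used here. Read counts were not used here, and depth was compared only through the steps between FPKM values under 0.3. Gene classes, UTRs and coordinates came from GENCODE M21 (GRCm38), matched by gene identifier, and no mm9 coordinates were printed.

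Groups were taken from the labels. Log2(FPKM + 0.5) of genes whose mean reached 0.5 FPKM on either day was fitted with limma 3.58.1 in R 4.3.3 with a trend, and p-values were adjusted by Benjamini-Hochberg over all genes tested, at 0.05. Folds on this scale understate the change of low genes. Differences from nucleus and whole cells were contrasts in joint fits of 12 libraries. The script was tested on simulated data. Alternatives were other pseudocounts, filters, scalings, gene sets and spreads, a replicate block, and leaving out each library in turn. Between the days, libraries with the same replicate number had correlations of deviations of -0.15, 0.02 and -0.20. With 3 libraries a day these values cannot show whether such libraries came from the same culture.

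Named genes were the 12 largest changes each way that passed, reached 2 FPKM and did not overlap between days, without predicted, pseudogene or non-unique symbols, up to 6 changed members and the first 2 entries of each of 46 lists, 5 lncRNAs each way, the 5 largest differences each way from nucleus or whole cells, and genes named in advance such as Dicer1. Other members of the target list and markers near 0 were named beside them for completeness. The comparison, its members and the gene lists were chosen with earlier results of these data known. Results of some list members are not reported here, and counts cover all members tested.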

Additional observations from a re-analysis of the deposited data

Results flagged for a closer look

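The change from day 0 to day 12 differed between cytoplasm and nucleus, by the test of the difference itself in limma, for 11 of the genes named by size. Emp1 changed by 2.26 more in the cytoplasm on the log2 scale (adjusted p 2.1e-05), its mean going from 3.08 to 45.8 FPKM there and from 13.2 to 36.6 in the nucleus. Pla2g7 rose in both, by 1.07 more in the cytoplasm (adjusted p 0.014). Pmp22 differed by 2.27, rising in the cytoplasm and falling in the nucleus. The difference of Snord91a, a small nucleolar RNA gene, was 3.24, with means of 0.268 and 2.34 FPKM in the cytoplasm against 12.5 and 4.72 in the nucleus. Col1a2 (3.21), a fibrillar collagen gene, and Mhrt (2.35), a heart-associated noncoding RNA, were below 0.5 FPKM in the cytoplasm on both days, and their differences come from nuclear levels that fell from 14.8 to 0.596 and from 3.57 to 0.111 FPKM.

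The difference had the opposite sign for the myosin gene Myh14 (-1.84), for Tprn (-1.83), for Sipa1l2 (-1.36), for Ceacam20 (-1.23) and for the germ-cell gene Tex14 (-1.22). Myh14 went from 5.91 to 2.52 FPKM in the cytoplasm and from 3.48 to 6.02 in the nucleus. Sipa1l2 went from 12.6 to 6.84 and from 8.52 to 12.4 FPKM. Ceacam20 rose in both fractions, from 0.354 to 1.26 FPKM in the cytoplasm and from 0.477 to 4.22 in the nucleus.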

How the results depend on the processing

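For the cytoplasm, leaving out each library in turn gave 8971 to 9354 called genes, 4283 to 4445 higher and 4687 to 4909 lower. The fit with a replicate block gave 4350 higher and 4842 lower. The spread of all 12 fraction libraries gave 5574 (2738 higher and 2836 lower), of which 5489 were called the same way in the 6-library fit and 0 the opposite way. Over 304 named genes, 4742 of 4858 alternative values kept their side of the threshold, 107 lost it and 9 gained it. Of the list counts, 49 of 92 moved by more than 1.5 times under the 12-library fit.

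Against the nucleus, quantile normalization gave 137 calls (81 higher) and the replicate block 53 (47 higher and 6 lower). Leaving out nuclear day 0 replicate 3 and day 12 replicate 1 together, chosen after seeing the data, gave 6580 (3676 higher and 2904 lower). Leaving out 1 library gave 24 to 1699 calls, 21 to 1062 higher and 3 to 695 lower, with 1443 without that day 0 library and 1699 without that day 12 library. The share of calls that were higher was 79.3%, and 68.9% under median-of-ratios scaling, 59.1% under quantile normalization and 55.9% with 10 libraries. Against whole cells, median-of-ratios scaling gave 1690 higher and 1745 lower and quantile normalization 1894 and 1567, so the share higher went from 24.8% to 49.2% and 54.7%. Leaving out 1 library gave 3154 to 3899 calls, 780 to 1041 higher and 2364 to 2858 lower.

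The median of genes with an 8-mer of the seed shared by miR-290 and miR-302 members was 0.16 with 7-mers, 0.29 with a pseudocount of 1 and 0.33 under median-of-ratios scaling, and 0.29 to 0.32 without 1 library. Class medians moved by a few hundredths, and that of antisense lncRNAs changed sign without 1 library. They were -0.11 for intergenic and -0.15 for other lncRNAs with a pseudocount of 1. With median-of-ratios scaling they were -0.0082 for protein-coding genes, -0.12 for intergenic, 0.047 for antisense and -0.16 for other lncRNAs. With quantile normalization they were -0.044 for protein-coding genes, 0.0044 for antisense and -0.17 for other lncRNAs. Without 1 library they were -0.037 to -0.0305 for protein-coding genes, -0.013 to 0.032 for antisense, -0.14 to -0.11 for intergenic and -0.19 to -0.16 for other lncRNAs. The cause of these movements was not tested.

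FPKM without counts leaves the depth of each value unknown, and 3 libraries a day limit the precision.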

Other observations

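Genes that rose in the cytoplasm had longer 3' UTRs than those that fell. The median length was 1408 bases over 4118 higher genes, 1112 over 3819 that did not pass and 875 over 4607 lower genes, and the median day 0 level was 5.42, 6.07 and 9.55 FPKM. The change went with UTR length (Spearman 0.18) and against day 0 level (-0.18) across genes, which share these libraries.

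The smooth muscle markers moved in opposite directions in the fractions. Acta2 went from a mean of 21.1 to 39.3 FPKM in the cytoplasm and from 120 to 68.3 in the nucleus, with a difference between the log2 changes of 1.70 (adjusted p 0.010 of limma). Tagln went from 29.6 to 56.2 and from 68.1 to 43.5 FPKM (1.55, adjusted p 0.019). Both rose in whole cells to day 10, Acta2 by 3.18 and Tagln by 2.04. Of the 6 tested fibroblast markers, a list that holds both genes, 1 rose and 4 fell in the nucleus, against 4 and 1 in the cytoplasm. Of the 27 contractile genes 6 rose and 6 fell in the nucleus. The cause of the nuclear falls was not tested.

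Replication-dependent histone genes, whose RNAs mostly lack a poly(A) tail, were higher in 8 of 34 tested cases and lower in 0 (limma; 5 and 0 with the spread of 12 libraries), with a median of 0.46, and their summed level was 161 to 181 FPKM at day 0 and 194 to 214 at day 12. The other 26 did not pass, and the shares over all tested genes were 30.7% higher and 33.9% lower. In whole cells to day 10, 1 of 34 histone genes was higher and 14 were lower (median -0.54), against 37.6% higher and 24.2% lower over all genes tested there. Whole-cell libraries of day 0 may count genes with near-identical copies differently, and the part of this in the histone counts was not tested. Zinc finger genes and KRAB-associated repressors had 5 of 10 members higher and 1 lower (1 and 0 with the spread of 12 libraries). Zfp148, a regulator with an 8-mer of the seed shared by miR-290 and miR-302 members, rose from 4.63, 4.78 and 5.15 to 12.6, 12.9 and 12.5 FPKM, a log2 change of 1.3. Outside the target list, Epha2, Vim (2.37), Kmt2a (0.59) and Srsf1 (0.51) also held this 8-mer and rose. P4ha1 (-0.78) and Eif4b (-0.49) held it and fell.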
